A study of Ascaris suum with 10 samples.

Results

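Male carcass, female carcass and muscle of adult Ascaris suum, a roundworm that lives in the intestine of pigs, were compared by RNA sequencing of polyadenylated RNA. The comparison uses 3 of the 10 libraries of the series, over all 15446 genes of the deposited table. By the labels, muscle is muscle with hypodermis, and both carcasses hold muscle, hypodermis, pharynx and neurons. All worms came from a North American wild population and none was treated. The sex of the worms behind the muscle library and the number of worms in any library are not given in the labels. The level of the same genes was then read in intestine, in second-stage larvae of day 7, in the embryo column (the authors' single value for 3 libraries of embryos incubated for 24, 46 and 64 hr), and in the germinal zones of testis and ovary.

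A gene was placed in the carcass set when the lower of the 2 carcasses stood above muscle by at least 2 on the log2(RPKM + 1) scale, which is a 4-fold difference once 1 RPKM is added to each value. It was placed in the muscle set when muscle stood above the higher carcass by the same margin. RPKM is the authors' unit, reads scaled by gene length and by library size. Each tissue has 1 library, so there is no replicate error, no test across animals was possible, and every difference below is a difference between these libraries. Read totals are unknown. Muscle had a summed RPKM of 702556, against 791938 for male and 821149 for female carcass, and 9914, 11675 and 11569 genes respectively stood at 1 RPKM or more.

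The nematode body wall is a layer of obliquely striated muscle under a hypodermis, the epithelium that secretes the collagen-rich cuticle. The pharynx is a muscular pump with its own gland cells that passes food into the intestine. Neurons are gathered in a ring around the pharynx and in cords along the body, to which nematode muscle cells send arms. The table gives gene identifiers without names, so markers of neurons, pharynx, muscle or hypodermis could not be read, the labelled tissues could not be checked against them, and no function can be given for any gene named here.

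More genes stood above muscle in both carcasses than stood above both carcasses in muscle, an order that turned only with scaling by the median of ratios among the 3 scalings tried. The carcass set held 306 genes (1.98% of the table) and the muscle set 62 (0.401%). Taken singly, male carcass stood above muscle at 982 genes (6.36%) and female carcass at 1017 (6.58%), while muscle stood above male carcass at 209 (1.35%) and above female carcass at 202 (1.31%). The carcass set is the part common to both single comparisons, 31.2% of the male list and 30.1% of the female list. Both comparisons share the muscle library, so a gene's muscle value enters each of them. For scale, male carcass stood above female carcass at 554 genes (3.59%) and female above male at 370 (2.40%).

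The balance between both sets depended on how the columns were scaled. Over all genes, the median log2(RPKM + 1) difference from muscle was 0.33 in male carcass and 0.34 in female carcass, so the typical gene was already a little higher in the carcasses. As deposited, 83.2% of the genes of both sets lay on the carcass side. With columns scaled to an equal sum there were 232 and 89 genes (72.3% on the carcass side), with the upper quartile 282 and 121 (70.0%), and with the median of ratios, which brought the median difference to 0.03 in male and 0.0 in female carcass, 199 and 294 (40.4%). Of the 306 genes, 197 remained in the carcass set under the median of ratios. All 62 genes of the muscle set remained in theirs under each of these 3 scalings. Each scaling divided muscle by a smaller factor than either carcass (0.565 against 0.855 in male and 0.930 in female for the median of ratios). That shifts genes toward the muscle set, so its full retention is no measure of its stability.

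**Figure D1:**
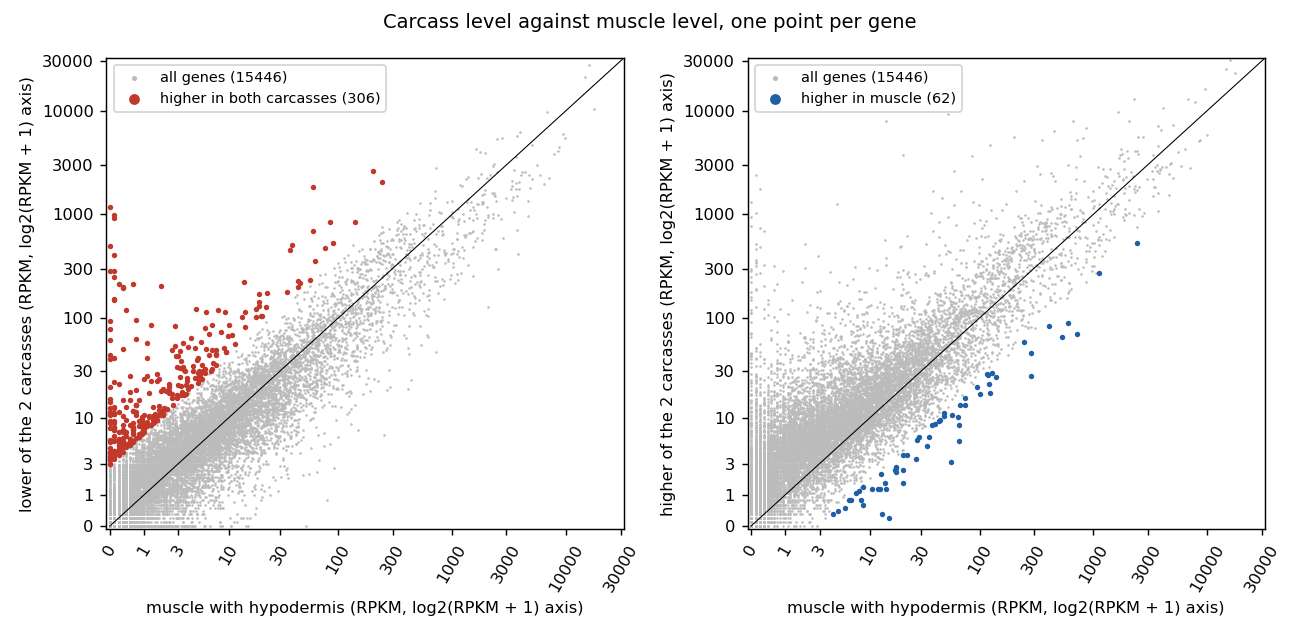
Level of every gene in muscle (horizontal axis) against the lower carcass (left) or the higher carcass (right), in RPKM on log2(RPKM + 1) axes, with the line of equal level. The 306 genes of the carcass set (red) include a column of points at or near 0 in muscle that reach about 1000 RPKM in both carcasses, whereas the 62 genes of the muscle set (blue) lie closer to the line.

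The genes of the carcass set were low in muscle and spread over a wide range in the carcasses. In muscle, 28 of the 306 were listed at 0, 158 stood at 1 RPKM or more and 65 at 5 or more, with a median of 1 RPKM. The carcass medians were 21.8 RPKM (male) and 26.6 RPKM (female), with highest values of 7869 and 5576 RPKM. These 3 sets of values chose the genes and are given as a description. The set made up 5.37% of the summed RPKM of male carcass, 4.73% of female carcass and 0.296% of muscle, and its 5 highest genes supplied 42.4% and 35.7% of the amounts in male and female carcass.

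Most of the differences were near the threshold, and a small group was far beyond it. The median difference was 2.53 on the log2(RPKM + 1) scale, 98 of 306 genes reached 3, 26 reached 5 and 14 reached 7. Several genes tied exactly at the threshold. ASG12268 among them was listed at 0 in muscle and stood at 5.7 RPKM in male and 3 RPKM in female carcass. ASG06618, also tied, stood at 6.7 RPKM in muscle, 37.1 in male and 29.8 in female carcass. The gene just outside stood at 6.5, 74.8 and 28.8 RPKM. A difference of a few RPKM is therefore enough for a gene that is absent or nearly so in muscle.

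Within the carcass set both carcasses were close for most genes. The male and female values lay within 2-fold of each other on the log2(RPKM + 1) scale for 211 of 306 genes. Male carcass was at least 4-fold above female at 15 genes and female above male at 12. The male value was the higher for 143 genes and the female value for 163. By the rule both carcasses had to be high, which narrows this spread.

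The largest differences belonged to genes listed at or near 0 in muscle and intestine. ASG00629 was listed at 0 in muscle, while its level was 1329.1 RPKM in the male and 1173.8 RPKM in the female carcass. Outside the carcasses its highest level was 19.1 RPKM in the embryo column, with 1.1 in larva and 0.3 in intestine. ASG05537 stood at 982.6 RPKM in male and 2376.7 in female carcass against 0.1 in muscle, a log2(RPKM + 1) difference of 9.80 for the lower carcass. It was listed at 0 in larva and testis, and stood at 0.3 RPKM in intestine, 0.4 in embryo and 1.9 in ovary. Both genes were thus high in both carcasses and did not exceed 2.8 RPKM in any of the other 6 columns, apart from the embryo value of ASG00629.

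**Figure D2:**
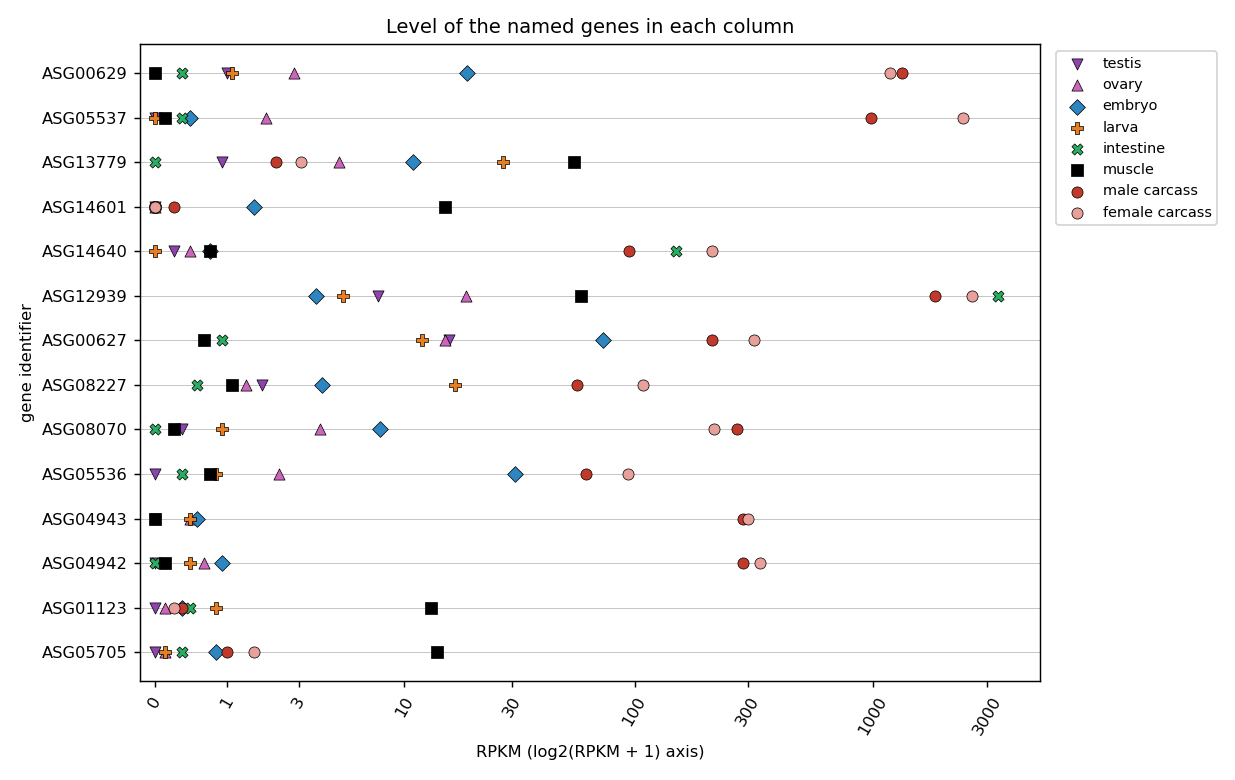
Level of the 14 named genes in each of the 8 columns, in RPKM on a log2(RPKM + 1) axis, 1 marker per column. For the 10 genes of the carcass set, both carcass markers (circles) stand far to the right of muscle (square). Intestine (cross) joins the carcasses for ASG14640 and ASG12939, and it stays under 1 RPKM for the other 8 of these genes.

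Read against intestine, the carcass set separated into genes that intestine also held at high level and genes nearly absent from it. Intestine stood at or above the lower carcass for 164 of 306 genes (53.6%), at 5 RPKM or more but below the lower carcass for 23, from 1 to under 5 RPKM for 36, and under 1 RPKM for 83 (27.1%). At 1 RPKM or more, 223 (72.9%) were present in intestine, against 55.8% over the whole table. The class under 1 RPKM was thus a smaller share than over the table. The share of all genes with intestine at or above the lower carcass was not counted. At 5 RPKM or more, 187 (61.1%) were present in intestine, against 35.5% over the whole table and 68.8% among the 6256 genes that reached 5 RPKM in both carcasses. With a pseudocount of 0.1 the larger carcass set had 28.3%, below the share of the table. At 50 RPKM or more, 107 (35.0%) were, against 9.27% over the table and 21.9% among those 6256. Intestine was the highest of all 8 columns for 122 genes, more than both carcasses together (102). How many genes of the whole table were highest in each column was not counted, here or below.

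The 164 genes with intestine at or above the lower carcass had a median of 78.95 RPKM in intestine and 2.5 in muscle, with 25.4 in the male and 29.8 in the female carcass. They supplied 9.59% of the summed RPKM of intestine, 3.67% of male carcass, 3.03% of female carcass and 0.245% of muscle. Their differences were moderate, with a median of 2.48 on the log2(RPKM + 1) scale and 1 gene at 5 or more. ASG14640 had the largest, 5.82, with 149.5 RPKM in intestine and 0.7 in muscle against 95.1 (male) and 211.9 (female) in the carcasses, and at most 0.7 in embryo, larva and the gonads. ASG12939 followed at 4.91, with 3325.1 RPKM in intestine and 59.6 in muscle against 1820.4 (male) and 2605.1 (female) in the carcasses. Subtracting the intestine percentage, as described below, sets its muscle value to 0, and only through that does its difference read 10.33. In ASG12939 the carcasses lay within 2-fold of intestine, and in ASG14640 the 2 carcasses lay on either side of it.

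Genes led by intestine stood higher in both carcasses than in muscle as a class. Among 402 genes at 50 RPKM or more in intestine and at most 1/5 of that in testis, ovary, embryo and larva, muscle reached a median of 4.84% of the intestine level, male carcass 16.1% and female carcass 17.0%. The carcass set held 85 of them (21.1%, against 1.98% of the table), with medians of 2.20%, 23.8% and 29.1%. Of genes at 50 RPKM or more in testis or in ovary and at most 1/5 of that in each of the remaining columns, it held 3 of 821 for testis (0.365%) and 1 of 70 for ovary (1.43%). This stricter rule also caps muscle and both carcasses, which the intestine rule leaves free, so these shares cannot be set against the 21.1%. The part of intestinal RNA in the carcass libraries in the result for genes led by intestine was not tested. Each library's median percentage of the intestine level was then subtracted, with negative results set to 0. This gave 253 genes in the carcass set, 244 of them from the original 306. Among the 164 genes with intestine at or above the lower carcass, muscle had an upper quartile of 4.635% of the intestine level. That is below the 4.84% subtracted, so muscle became 0 for most of them, and the count of 244 partly reflects that step.

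The 83 genes under 1 RPKM in intestine held most of the largest differences. Of the 26 genes with a difference of 5 or more, 20 were in this class and 19 of the 26 stood under 5 RPKM in both larva and embryo. Its median in muscle was 0.1 RPKM, with 21 genes listed at 0, against 14.4 (male) and 11.7 RPKM (female) in the carcasses. The class supplied 1.12% of the summed RPKM of female carcass and 0.0058% of that of muscle. Its median difference was 2.93, and 13 genes reached 7. Across the 306 genes, Spearman's rho between intestine and the lower carcass was 0.45, between larva and the lower carcass -0.10 and between embryo and the lower carcass -0.04. These are correlations across genes of a chosen set, which are not independent replicates. The lower carcass also took part in choosing the genes, and rho over all genes was not computed.

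**Figure D3:**
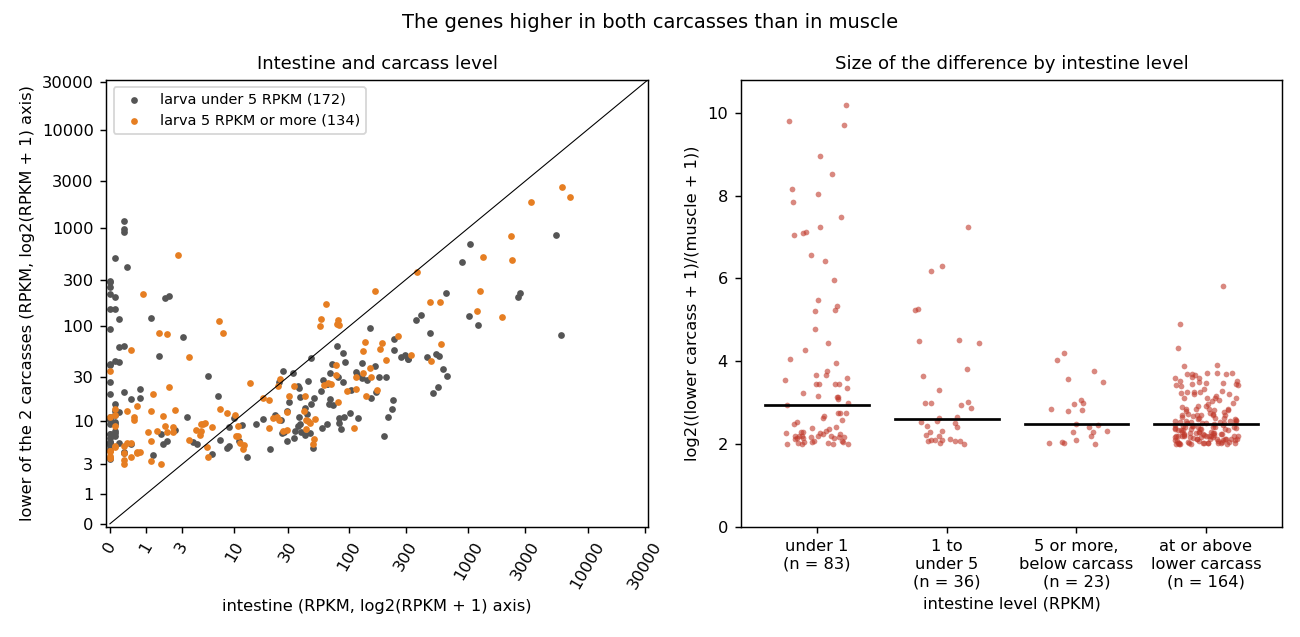
The 306 genes of the carcass set. Left, intestine against the lower carcass in RPKM on log2(RPKM + 1) axes, coloured by larval level, with the line of equal level; right, the log2(RPKM + 1) difference of the lower carcass from muscle in 4 classes of intestine level, with the median of each class as a bar. A cloud below the line holds the 164 genes at least as high in intestine, and the differences of 7 or more lie in the class under 1 RPKM in intestine, apart from 1 gene in the next class.

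The shares of the carcass set present in larva and in embryo lay below those of the whole table. In larva, 134 of 306 (43.8%) stood at 5 RPKM or more, against 58.9% over the table and 81.6% among the 6256 genes reaching that level in both carcasses. In the embryo column 123 (40.2%) did, against 61.2% and 81.5%. The median of the carcass set was 3.3 RPKM in larva, 2.3 in embryo and 21.6 in intestine, while over all genes it was 8.6, 11.3 and 1.7. The order of the shares turned at a log2 threshold of 1, where 66.2% of the carcass set stood at 5 RPKM or more in larva and 69.6% in embryo, and for embryo with female carcass alone (67.9%).

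The 306 genes took every combination of these 3 columns. At 5 RPKM or more, 83 (27.1%) were present in intestine and in neither larva nor embryo, against 4.42% of all genes. Intestine and larva without embryo held 28 (9.15%, against 1.67%) and intestine and embryo without larva 22 (7.19%, against 1.86%). All 3 columns held 54 (17.6%, against 27.6%), larva and embryo without intestine 36 (11.8%, against 21.8%), larva alone 16 (5.23%, against 7.87%) and embryo alone 11 (3.59%, against 9.96%). The remaining 56 (18.3%) were under 5 RPKM in all 3, against 24.9% over the table and 7.07% among the same 6256 genes. Those 56 had a median difference of 3.40 and carcass medians of 18.9 (male) and 17.9 RPKM (female), and 18 of them reached a difference of 5.

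**Figure D4:**
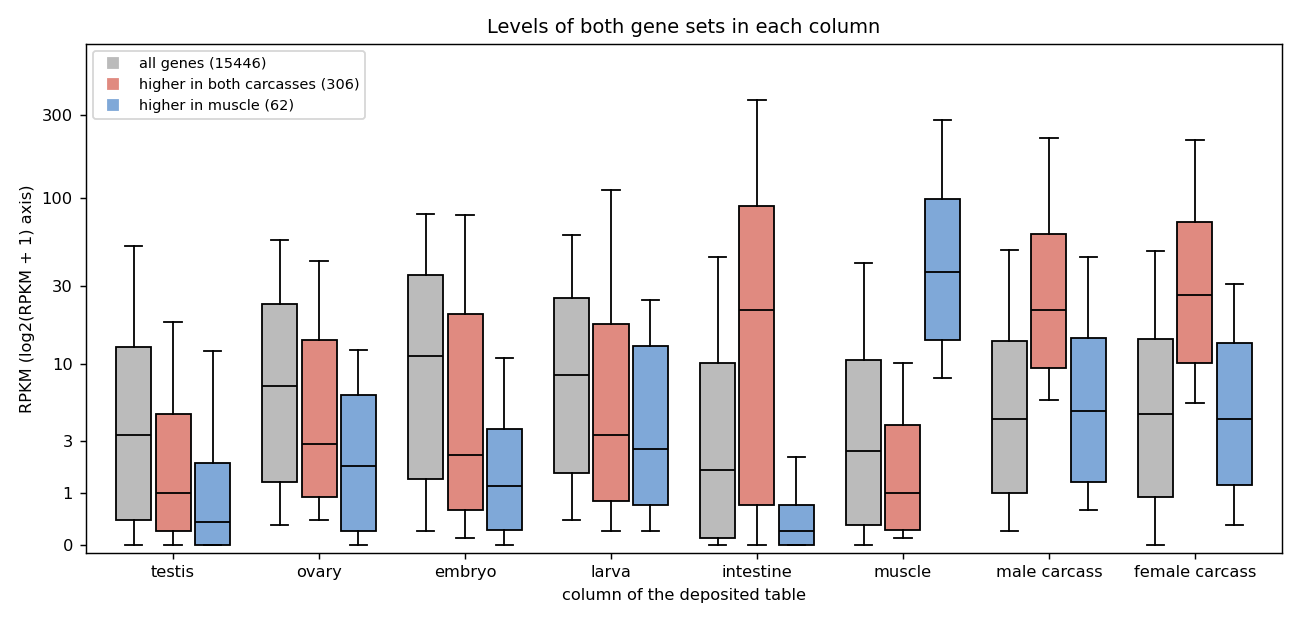
RPKM in each of the 8 columns on a log2(RPKM + 1) axis for all 15446 genes (grey), the 306 genes of the carcass set (red) and the 62 of the muscle set (blue). Boxes span the quartiles with the median as a line, and whiskers run from the 10th to the 90th percentile; the carcass set has its highest non-carcass median in intestine (21.6 RPKM), and the muscle set has its lowest there (0.2 RPKM).

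Larva was the highest of all columns for 36 genes of the carcass set, a count without a matching share over all genes. These had a median of 291 RPKM in larva, 43.8 in embryo and 31.1 in ovary. In the carcasses their medians were 12.9 (male) and 14.3 RPKM (female), and in muscle 0.45. Because of such genes the carcass set made up 7.36% of the summed RPKM of larva, of which the 5 highest genes supplied 64.3%. Genes led by larva (170 genes of at least 50 RPKM whose level elsewhere was at most 1/5 of the larval level) reached a median of 0.203% of that level in muscle, 2.57% in the male and 1.52% in the female carcass, and 14 of them (8.24%, against 1.98% of the table) were in the carcass set. The part of this pattern in the result was not tested.

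A narrower group was present in larva and nearly absent from intestine. It counted 29 genes (9.48% of the carcass set), and the matching share over all genes was not counted. The medians of these 29 genes were 14.7 RPKM in larva, 9.9 in embryo and 0.2 in muscle. In the carcasses they were 8.9 (male) and 5.6 (female). ASG00627 stood at 212 RPKM in male and 316.4 in female carcass against 0.6 in muscle, a difference of 7.06. It stood at 73.7 RPKM in embryo, 12.1 in larva and 0.9 in intestine, so both carcasses exceeded every other column. ASG08227 stood at 57 RPKM in male and 108.5 in female carcass against 1.1 in muscle, with 16.9 in larva, 4 in embryo and 0.5 in intestine, a difference of 4.79.

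Embryo was the highest column for 28 genes of the carcass set, with medians of 74.1 RPKM in embryo, 27.8 in larva, 8.65 in male carcass and 0.6 in muscle. Their differences reached at most 2.99. Genes led by embryo by the same rule as for larva (194 genes) stood at a median of 6.29% of the embryo level in female carcass, 1.87% in male carcass and 0.783% in muscle, and 4 of them (2.06%) were in the carcass set, about the 1.98% of the table. Only 2 genes of the set stood at 5 RPKM or more in embryo with both intestine and larva under 1 RPKM. ASG08070 stood at 270.9 RPKM in male and 215.1 in female carcass, 0.2 in muscle and 7.7 in embryo. ASG05536 stood at 62.2 and 94 RPKM in the carcasses, 0.7 in muscle and 31.1 in embryo. Both were higher in each carcass than in embryo.

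In 13 genes of the carcass set (4.25%), intestine, larva, embryo, testis and ovary were all under 1 RPKM. The matching share over all genes was not counted. The 13 genes had a median of 0.1 RPKM in muscle. Their carcass values had medians of 45.6 (male) and 42.5 RPKM (female) and ran from 6.4 to 320.4 and from 10.4 to 337.2 RPKM. ASG04943 had 286 RPKM in the male and 299 in the female carcass, was listed at 0 in muscle, intestine and testis, and did not exceed 0.5 in larva, embryo and ovary. ASG04942 stood at 286.9 and 337.2 RPKM in the carcasses, 0.1 in muscle and at most 0.9 in the other 5 columns, a difference of 8.03. The count of 13 was 2 when under 0.5 RPKM was required elsewhere and 27 when under 2 RPKM was allowed. It was 7 with a pseudocount of 5, 38 with a pseudocount of 0.1, 29 at a log2 threshold of 1, 34 with the carcass mean and 49 with male carcass alone.

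As deposited, the muscle set was smaller, closer to the threshold and mostly under 1 RPKM in intestine. Its 62 genes had a median of 36.55 RPKM in muscle against 4.9 (male) and 4.5 (female) in the carcasses, and 5 of them stood at 500 RPKM or more in muscle. The median difference was 2.34 on the log2(RPKM + 1) scale, 8 genes reached 3 and none of the 62 reached 4. It made up 1.26% of the summed RPKM of muscle, 0.195% of male carcass and 0.163% of female carcass. Male and female carcass lay within 2-fold for 50 of the 62. A gene tied with others exactly at the threshold stood at 8.6 RPKM in muscle, 0.7 in male and 1.4 in female carcass. The gene just outside stood at 176.6, 22.1 and 43.5 RPKM.

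In intestine 3 of the 62 genes (4.84%) stood at 5 RPKM or more, against 35.5% over the table and 65.6% among the 5851 genes reaching that level in muscle. In larva 22 (35.5%) did, against 58.9% and 80.3%, and in embryo 12 (19.4%), against 61.2% and 79.5%. Under 5 RPKM in all 3 were 33 (53.2%), against 24.9% of all genes. Muscle was the highest of the 8 columns for 53 of the 62, testis for 4, larva for 3 and intestine for 2. By the rule muscle exceeded both carcasses, so neither carcass could be highest. With the intestine percentages subtracted as above, which takes more from the carcasses than from muscle, the set grew to 158 genes, of which 60.1% stood at 5 RPKM or more in intestine. That intestine share was 18.4% with the median of ratios (at 5 RPKM of the rescaled column), 16.3% with female carcass alone and 20.0% at a log2 threshold of 1. Each was still below the 35.5% of the table as deposited. The embryo share reached 43.3% at that threshold and 52.9% with a pseudocount of 5, and the larva share 55.1% and 52.9%.

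ASG13779 had 55.3 RPKM in muscle against 2.2 (male) and 3.1 (female) in the carcasses, a difference of 3.78 from the higher carcass. It was also present in larva at 27.5 RPKM and in embryo at 11, and was listed at 0 in intestine. ASG14601 stood at 15.3 RPKM in muscle and 0.2 in male carcass, was listed at 0 in female carcass, larva and intestine, and stood at 1.6 in embryo. In 8 genes of the muscle set (12.9%) the other 5 columns were all under 1 RPKM, again without a matching share over all genes. The muscle levels of these 8 genes ran from 4.2 to 17.3 RPKM, with a median of 10.3. ASG01123 (muscle 13.2 RPKM, male carcass 0.3, female carcass 0.2) and ASG05705 (14.1, 1 and 1.6 RPKM) had the largest differences among those of 10 RPKM or more.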

How the data were processed

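The deposited table holds RPKM values made by the authors for 15446 genes in 8 columns, with 1 decimal, and the submitters' processing notes name TopHat and Cufflinks. Versions, genome build, annotation, gene lengths and read totals were not given in the sources used, so depth is unknown and a 0 is reported as listed at 0. Columns were assigned to samples by title. The embryo column is the authors' value for 3 libraries. Columns from outside the series numbered 0.

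Differences were computed as log2((a + 1)/(b + 1)) with a threshold of 2 (Python 3.11.15, pandas 2.3.3). A pseudocount of 1 understates the change of low genes. With 1 library per tissue no test was made. Simulated data with known differences were used to test the counting. Only genes at 5 RPKM or more in muscle were raised there, and by more than the threshold. Genes lower in muscle, or with differences near the threshold, were therefore not covered. Named genes are the 2 with the largest difference in each direction, and in each class described, among genes of 10 RPKM or more on the higher side. The comparison, classes and thresholds were chosen with earlier results of these data known. Lists of markers for 6 tissues (neuron, pharynx, body-wall muscle, hypodermis, intestine, germline) had been written by gene name, and 0 of their genes could be matched. Alternatives were other pseudocounts, thresholds, minimum levels, scalings, each carcass alone, the carcass mean and subtraction of the intestine percentage.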

Additional observations from a re-analysis of the deposited data

Results flagged for a closer look

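Male and female carcass departed from muscle in opposite directions at 10 genes, each by 2 or more on the log2(RPKM + 1) scale. At 8 of them male carcass stood above muscle and female carcass below it, and at 2 the reverse held. With 1 library per tissue the difference between the carcasses was not tested. Testis levels of these genes ran from listed at 0 to 47009 RPKM.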

How the results depend on the processing

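With equal column sums, and with a minimum of 5 RPKM on the higher side, the sizes of both sets (1.98% and 0.401% of the table) stayed within 1.5 times and the shares of the carcass set at 5 RPKM or more in intestine, larva and embryo within their 95% binomial interval over genes. That interval treats the genes of a chosen set as independent, which they are not. It served only as a yardstick for the size of a shift and measures no error between animals or libraries. Every other setting moved some value, and no difference of a named gene changed sign. A pseudocount of 0.1 put 8.18% and 1.02% of the table in the carcass and muscle sets, with 28.3% of the carcass set in intestine and 49.6% in embryo, and a pseudocount of 5 put 0.673% and 0.11% there, with 34.6% in larva. A threshold of 1 gave 11.3% and 3.85%, with 51.5% in intestine, 66.2% in larva and 69.6% in embryo. A threshold of 3 gave 0.634% and 0.0518%, with 46.9%, 28.6% and 28.6%. Male carcass alone gave 6.36% and 1.35%, with 52.3% in intestine and 52.1% in larva, and female carcass alone 6.58% and 1.31%, with 40.7%, 53.1% and 67.9%. The carcass mean gave 6.23% and 0.764%, with 51.2%, 51.6% and 49.1%. The median of ratios gave 1.29% and 1.9%, with 53.8%, 29.7% and 24.6%, the upper quartile a muscle set of 0.783% with 33.3% of the carcass set in embryo, and the intestine subtraction a muscle set of 1.02% with 53.8% in intestine. In every scaling the 5 RPKM level was applied to rescaled columns. Embryo was divided by 2.51 for the median of ratios and by 1.845 for the upper quartile, and intestine by 0.604 and 0.840. Shares under a scaling are therefore at other levels than the deposited ones, and the table share was not recounted. As deposited, at 1 RPKM or more the shares were 72.9%, 73.9% and 65.7%, and at 10 RPKM or more 32.0% in larva and 33.3% in embryo. The cause of these shifts was not tested. ASG01123, ASG05705 and ASG14601 dropped below a difference of 2 with a pseudocount of 5 (1.78, 1.53 and 1.96).

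No paired analysis was possible because the labels give no replicate numbers and each tissue has 1 library. Depth limits low values by an unknown amount.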

Other observations

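Genes that stood above muscle in a single carcass differed from the carcass set in the gonads and embryo. At 676 genes male carcass alone passed the threshold, and 278 (41.1%) reached 5 RPKM in testis, close to the 42.7% of all genes. Of the 173 genes in the whole table with a testis level of at least 500 RPKM, 94 belonged to this list. At 711 genes female carcass alone passed the threshold, and 568 (79.9%) stood at 5 RPKM or more in embryo and 478 (67.2%) in ovary. In the carcass set the shares were 24.2% in testis, 40.2% in embryo and 39.5% in ovary, and over all genes 42.7%, 61.2% and 56.5%. In intestine the shares were 48.4% for the 676 genes, 31.9% for the 711 genes and 61.1% for the carcass set, against 35.5% of all genes. The lists of 676 and 711 genes leave out the carcass set, unlike the settings above that used each carcass alone. All these lists share the muscle library, and the shares were not tested.

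Genes of the carcass set often had identifiers next to each other in number. Of the 306 genes, 59 (19.3%) had another member with the next number up or down, among them ASG04942 and ASG04943. Of the 599 genes next in number to a member, 9.85% were themselves members, against 1.98% of the table. In the muscle set 12 of 62 (19.4%) had such a neighbour, and 9.84% of the 122 genes next to a member were members, against 0.401%. This was counted after the values were seen, and the sources used here do not say whether identifier order follows position in the genome.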
